A study of Bos taurus with 40 samples.

Results

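The 6 genes described here belong to the growth hormone and insulin-like growth factor (IGF) axis, and they were selected by Ensembl identifier among the genes measured in bovine jejunal epithelium. They are the ligands IGF1 (ENSBTAG00000011082) and IGF2 (ENSBTAG00000013066), the receptors GHR (ENSBTAG00000001335) and IGF1R (ENSBTAG00000021527), and the binding proteins IGFBP3 (ENSBTAG00000000442) and IGFBP5 (ENSBTAG00000007062). All 6 were listed in each of the 40 libraries, among 13685 genes listed after Period 1, 13605 listed after Period 2 and 13781 listed in at least 1 of the periods. None was absent as too low. The names come from the rule that selected the genes, and no table used here pairs the identifiers with symbols.

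The tissue was jejunal epithelium scraped from 40 Holstein Friesian bulls, and its RNA was sequenced. The diets differed only in Period 1, of 125 days, when the feed of RES bulls was limited while ADLIB bulls could eat freely. During the 55 days of Period 2 feed was offered freely to both. All animals received the same mixture of concentrate and grass silage, so the groups differed in the amount of feed. Jejunum was collected at slaughter, hence each of the 4 groups (ADLIB Period 1, RES Period 1, ADLIB Period 2 and RES Period 2) held 10 different animals with no animal in more than 1 group. One protocol label names muscle as the extracted tissue, whereas the tissue label of every sample is jejunal epithelium. The labelled tissue could not be checked against marker genes, as the files carry identifiers only.

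Growth hormone from the pituitary acts through its receptor GHR, and in the liver and many other tissues this raises production of IGF1. IGF1 and IGF2 both signal through IGF1R, a receptor tyrosine kinase that promotes cell growth and survival. Binding proteins such as IGFBP3 and IGFBP5 hold the IGFs in circulation and in tissue and govern how much ligand reaches the receptor. In the gut wall the IGFs are known as growth factors of the mucosa, and much of the local IGF1 and IGFBP5 is made by stromal and muscle cells beneath the epithelium. In whole scraped tissue a lower value may mean fewer cells that express a gene or less RNA per cell, and these cannot be told apart.

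Values are TMM-normalised read counts relative to library size (CPM), and 1 read was worth between 0.116 and 0.295 CPM depending on the library. Between 4431390 and 8295900 reads per library fell on listed genes. Across all listed genes, 38 libraries correlated at 0.918 or more with the median profile of the remaining 19 libraries in the same period. RES Period 1 replicate 6 (0.883) and RES Period 2 replicate 1 (0.815) stood apart. The former was the lowest of 20 libraries for 18.8% of genes and the highest for 21.7%, and the latter was the lowest for 32.3% and the highest for 27.5%. Results that rest on these libraries are given with and without them.

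None of the 6 genes passed the test between RES and ADLIB animals in either period. By limma on log2(CPM + 1) with Benjamini-Hochberg adjustment over all genes tested, 0 of the 6 genes were called after Period 1 at an adjusted p under 0.001, the threshold the study used, beside 0% of 13685 genes tested. At an unadjusted p under 0.05, 0 of 6 members passed, beside 3.61% of all genes. After Period 2, 0 of 6 were called beside 0% of 13605 genes, and at an unadjusted p under 0.05 the counts were 0 of 6 beside 2.06% of all genes. The likelihood ratio and quasi-likelihood tests of edgeR, DESeq2 and limma-voom, run on the recovered reads, also called 0 of the 6 genes in each comparison. At this threshold the study reported differing genes in both comparisons with the likelihood ratio test of edgeR. Run here on the recovered reads, that test called 0 of 13685 genes after Period 1 and 0 of 13605 after Period 2. The calls of the study were therefore not recovered, for reasons that were not tested. The lack of calls here among the 6 genes thus says little about whether they changed. In the study, the only gene that differed between the diets after Period 2 was GSTA1, which is not a member. Its main list for Period 1 names no member either, although that list holds fewer genes than the study counted.

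**Figure D1:**
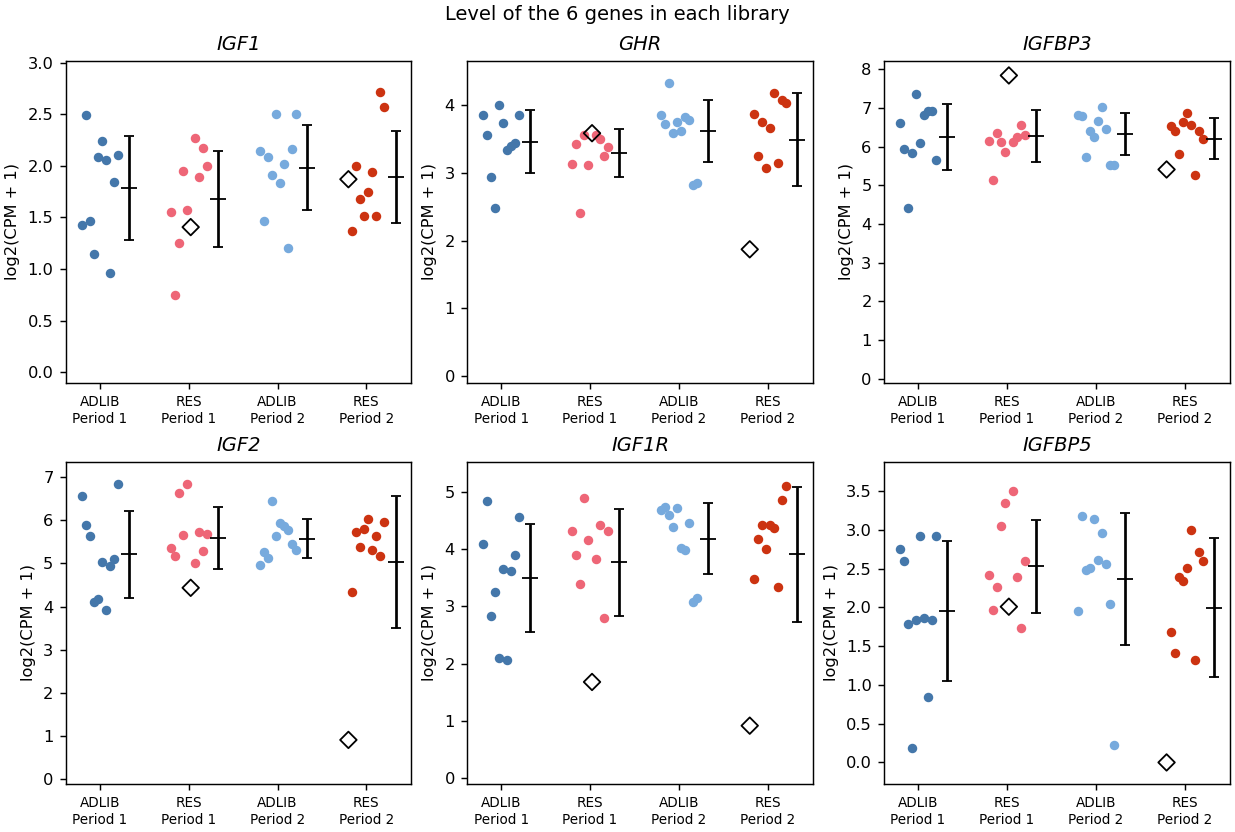
Level of each gene in every library on the log2(CPM + 1) scale, by group (n = 10 each); black bars show the mean and SD of the log2 values, and open diamonds mark RES Period 1 replicate 6 and RES Period 2 replicate 1. The groups overlap for all 6 genes, and the lowest points for IGF2, IGF1R, GHR and IGFBP5 after Period 2 all belong to RES Period 2 replicate 1.

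IGF1, the ligand whose synthesis growth hormone drives in liver, rested on few reads in jejunal epithelium, between 4 and 44 per library. After Period 1 it ranged from 0.953 CPM through a median of 2.87 to 4.64 in ADLIB animals. The RES values ran from 0.685 CPM through a median of 2.34 to 3.81. The RES values lay within or just beneath the ADLIB range, and 7 of 10 RES libraries were under the ADLIB median. The difference, RES minus ADLIB, was -0.10 on the log2(CPM + 1) scale (SE 0.21, 95% CI -0.54 to 0.34, limma adjusted p = 0.999). After Period 2 IGF1 ranged from 1.30 CPM through a median of 3.16 to 4.67 in ADLIB animals. IGF1 in RES animals had a lowest value of 1.57 CPM, a median of 2.50 and a highest value of 5.57. The 2 groups overlapped nearly throughout, although 8 of 10 RES libraries lay under the ADLIB median. The log2 difference was -0.09 (SE 0.19, 95% CI -0.49 to 0.30, limma adjusted p = 0.990).

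IGF2, the ligand that binds both IGF1R and the IGF2 receptor, ranged from 14.2 CPM through a median of 32.5 to 112.8 in ADLIB animals after Period 1. Among RES animals the lowest value was 20.6 CPM, the median 45.1 and the highest 114.1. The groups overlapped over most of this range and 8 of 10 RES libraries were above the ADLIB median. RES minus ADLIB came to 0.37 (SE 0.36, 95% CI -0.38 to 1.12, limma adjusted p = 0.999). After Period 2 IGF2 ranged from 30.1 CPM through a median of 45.7 to 86.0 in ADLIB animals. RES animals spanned 0.885 CPM to 64.4, with a median of 44.9. The lowest RES value was that of replicate 1, which held 3 reads of IGF2, and the next lowest RES library was replicate 2 at 19.4 CPM. The log2 estimate was -0.55 (SE 0.46, 95% CI -1.51 to 0.41, limma adjusted p = 0.990), and it was -0.09 (95% CI -0.52 to 0.34) without RES Period 2 replicate 1.

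GHR, the receptor for growth hormone, ranged from 4.61 CPM through a median of 10.3 to 15.1 in ADLIB animals after Period 1. The RES libraries spanned 4.30 CPM to 11.0, with a median of 9.60. The top RES library lay under the top of the ADLIB range, and 6 of 10 RES libraries were under the ADLIB median. On the log2 scale RES minus ADLIB was -0.17 (SE 0.18, 95% CI -0.55 to 0.22, limma adjusted p = 0.999). It was -0.07 without RES Period 1 replicate 3, -0.20 without RES Period 1 replicate 6 and -0.28 without ADLIB Period 1 replicate 4. After Period 2 GHR ranged from 6.09 CPM through a median of 12.3 to 19.1 in ADLIB animals. For RES animals the median of GHR was 12.1, between 2.66 CPM and 17.1. The RES libraries split evenly about the ADLIB median, 5 above and 5 under it, and the lowest was replicate 1 with 9 reads. The log2 difference was -0.12 (SE 0.25, 95% CI -0.64 to 0.40, limma adjusted p = 0.990), and it turned to 0.06 without RES Period 2 replicate 1.

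IGF1R, the receptor through which both IGFs signal, ranged from 3.15 CPM through a median of 11.5 to 27.6 in ADLIB animals after Period 1. The RES values ran from 2.20 CPM through a median of 15.3 to 28.8. The lowest RES library was replicate 6 with 8 reads, and 7 of 10 RES libraries were above the ADLIB median. RES minus ADLIB came to 0.28 (SE 0.39, 95% CI -0.52 to 1.08, limma adjusted p = 0.999), and it was 0.51 without RES Period 1 replicate 6 and 0.12 without either ADLIB Period 1 replicate 7 or replicate 5. After Period 2 IGF1R ranged from 7.48 CPM through a median of 20.4 to 25.7 in ADLIB animals. IGF1R in RES animals had a lowest value of 0.885 CPM, a median of 18.3 and a highest value of 33.5. The RES values reached further at both ends, with replicate 1 (3 reads) lowest and replicate 10 highest. The log2 estimate was -0.27 (SE 0.39, 95% CI -1.09 to 0.54, limma adjusted p = 0.990), and it turned to 0.06 without RES Period 2 replicate 1.

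IGFBP3, the main carrier of IGFs in blood, ranged from 20.4 CPM through a median of 82.7 to 163.0 in ADLIB animals after Period 1. Among RES animals the lowest value was 34.1 CPM, the median 72.8 and the highest 228.9. The highest RES value was that of replicate 6, while the second highest was 93.7 CPM and 7 of 10 RES libraries were under the ADLIB median. On the log2 scale RES minus ADLIB was 0.01 (SE 0.32, 95% CI -0.65 to 0.67, limma adjusted p = 0.999), and it turned to -0.16 without RES Period 1 replicate 6 and to between -0.03 and -0.02 by edgeR and DESeq2. After Period 2 IGFBP3 ranged from 45.2 CPM through a median of 85.1 to 129.7 in ADLIB animals. RES animals spanned 37.6 CPM to 115.9, with a median of 83.6. The groups overlapped nearly throughout. The log2 difference was -0.11 (SE 0.23, 95% CI -0.59 to 0.37, limma adjusted p = 0.990), and it was -0.02 without RES Period 2 replicate 1 and -0.0047 without replicate 8.

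IGFBP5, a binding protein that also attaches to extracellular matrix, had the largest estimated difference of the 6 genes after Period 1. IGFBP5 ranged from 0.135 CPM (1 read) through a median of 2.61 to 6.59 in ADLIB animals. The RES libraries spanned 2.34 CPM to 10.3, with a median of 4.29. Of the RES libraries 9 of 10 were above the ADLIB median, although the ranges overlapped between 2.34 and 6.59 CPM. RES minus ADLIB came to 0.57 (SE 0.32, 95% CI -0.09 to 1.24, limma unadjusted p = 0.0865, adjusted p = 0.999), and a two-sided permutation test of the same difference with 100000 resamples gave p = 0.112. The limma unadjusted p fell under 0.05 in 2 of the 20 fits that each left out 1 animal (lowest 0.0452), and no adjusted p did. The difference was 0.38 (limma unadjusted p = 0.190) without ADLIB Period 1 replicate 4, the library with 1 read. It was 0.45 (limma unadjusted p = 0.168) without ADLIB Period 1 replicate 8, which held 5 reads. After Period 2 IGFBP5 ranged from 0.167 CPM (1 read) through a median of 4.79 to 8.02 in ADLIB animals. In RES animals it ranged from 0 through a median of 4.16 to 6.97 CPM, where the 0 reads of replicate 1 allow a level of up to 0.885 CPM (3 reads). Here 7 of 10 RES libraries were under the ADLIB median. The log2 estimate was -0.37 (SE 0.37, 95% CI -1.13 to 0.40, limma adjusted p = 0.990), and it was -0.15 without RES Period 2 replicate 1 and -0.61 without ADLIB Period 2 replicate 10.

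**Figure D2:**
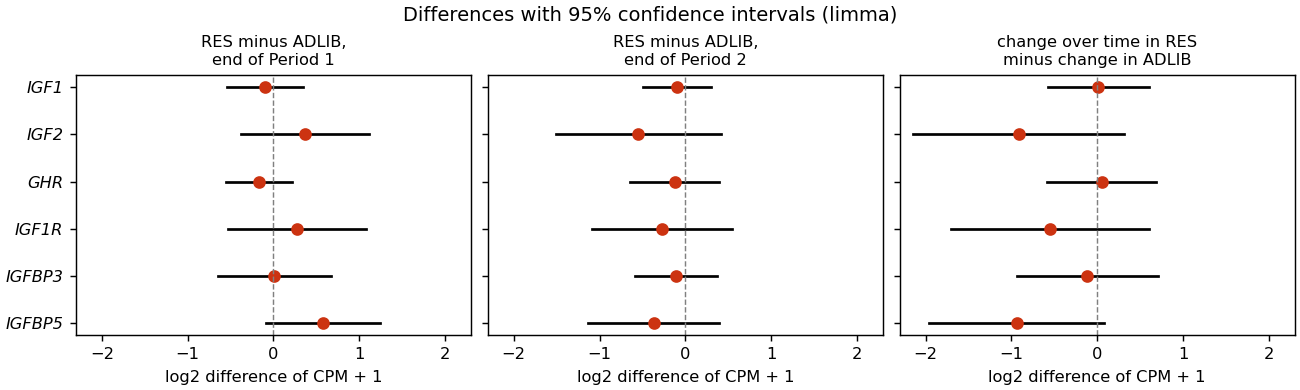
Log2 difference of CPM + 1 for each gene (points) with its 95% confidence interval from limma (bars), for RES minus ADLIB after each period and for the difference between the changes over time. Every interval includes 0, and those of IGFBP5 in the first panel (-0.09 to 1.24) and in the third (-1.96 to 0.08) only just do.

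Across the 6 genes, 4 were higher and 2 lower in RES animals after Period 1, with a median log2 difference of 0.15 against 0.00 over all 13685 genes, and IGFBP3 was lower in place of higher by edgeR, DESeq2 and without RES Period 1 replicate 6. After Period 2 all 6 were lower, with a median of -0.20 against -0.01 over all 13605 genes. Of all genes tested, 50.4% were higher in RES animals after Period 1 and 48.3% after Period 2. Once RES Period 2 replicate 1 was left out the median of the 6 was -0.05 and GHR and IGF1R were higher, and IGF1 was higher by 0.02 with the library code number as a factor. The permutation test of single genes gave p of at least 0.343 for all 6 genes after Period 2 and for the 5 genes other than IGFBP5 after Period 1. The intervals bound what these libraries could show. After Period 1 the fold change of GHR, on the CPM + 1 scale, lay between 0.683 and 1.16 and that of IGF1 between 0.686 and 1.27. Those of IGF1R (0.695 to 2.12), IGF2 (0.770 to 2.17) and IGFBP5 (0.940 to 2.36) extended past a doubling. After Period 2 the interval for IGF2 was 0.351 to 1.33, and 0.698 to 1.26 without RES Period 2 replicate 1.

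Change over time was examined within each diet, on the recovered reads of all 40 libraries scaled together, while the group means printed beside the differences are of the deposited CPM, which were scaled in each period separately. The animals slaughtered after Period 2 were older and were slaughtered later, so period and age cannot be told apart within a diet. For RES animals the change in feeding cannot be told apart from these either, whereas ADLIB animals could eat freely in both periods. In RES animals, compared between the end of re-alimentation and the end of restriction, 0 of 6 members were called beside 0% of 13509 genes tested, and 0 of 6 had an unadjusted p under 0.05 beside 5.66% of all genes. The mean of IGFBP5 was 5.25 ± 2.76 CPM (SD, n = 10) under restriction and 3.60 ± 2.17 CPM after re-alimentation, and the log2 difference of Period 2 minus Period 1 was -0.55 (SE 0.32, 95% CI -1.21 to 0.12, limma unadjusted p = 0.102, adjusted p = 0.873). Without the libraries that stood apart this difference was -0.38 (95% CI -0.94 to 0.17, limma unadjusted p = 0.162, adjusted p = 0.901). IGF2 had means of 53.1 ± 29.9 and 41.5 ± 19.5 CPM, with a log2 difference of -0.58 (SE 0.48, limma adjusted p = 0.885). That value was -0.25 without the libraries that stood apart. GHR had means of 9.03 ± 2.07 and 11.2 ± 4.55 CPM, with a log2 difference of 0.18 (SE 0.24, limma adjusted p = 0.927). Without the same libraries GHR moved to 0.39 (SE 0.18, limma unadjusted p = 0.0458, adjusted p = 0.881). The log2 differences of IGF1 (0.20), IGF1R (0.12) and IGFBP3 (-0.08) were smaller than their SE, and that of IGFBP3 turned to 0.18 without those libraries.

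In ADLIB animals all 6 genes were higher after Period 2, where 50.2% of all genes were, but 0 of 6 members were called beside 0% of 13509 genes and 0 of 6 had an unadjusted p under 0.05 beside 5.06% of all genes. IGF1R came closest. Its mean was 12.4 ± 8.00 CPM (SD, n = 10) in ADLIB Period 1 and 18.5 ± 6.90 CPM in ADLIB Period 2, and the log2 difference was 0.67 (SE 0.33, 95% CI -0.02 to 1.36, limma unadjusted p = 0.0571, adjusted p = 0.865). The unadjusted p was under 0.05 in 5 of 20 fits without 1 animal (lowest 0.0182, adjusted p of at least 0.609). The ranges, 3.15 to 27.6 and 7.48 to 25.7 CPM, overlapped except at the lower end. The other genes gave log2 differences of 0.39 for IGFBP5 (SE 0.37), 0.34 for IGF2 (SE 0.32), 0.18 for IGF1 (SE 0.20), 0.13 for GHR (SE 0.20) and 0.04 for IGFBP3 (SE 0.30), with limma adjusted p of at least 0.868. That of IGF2 was 0.08 by both edgeR tests and 0.09 by DESeq2, and that of IGFBP3 took the opposite sign by these 3 tests.

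Whether the change over time differed between diets was tested as an interaction over all 40 libraries. It called 0 of 6 members beside 0% of 13509 genes, and 0 of 6 had an unadjusted p under 0.05 beside 6.44% of all genes. IGFBP5 had the interaction nearest to the threshold, where the log2 change in RES minus that in ADLIB was -0.94 (SE 0.50, 95% CI -1.96 to 0.08, limma unadjusted p = 0.0687, adjusted p = 0.721). Without the libraries that stood apart the IGFBP5 interaction was -0.78 (95% CI -1.74 to 0.19, limma unadjusted p = 0.111, adjusted p = 0.974). Its unadjusted p was under 0.05 in 5 of the 40 fits that left out 1 animal (lowest 0.0148, for -1.18 without ADLIB Period 2 replicate 10), with an adjusted p of at least 0.511. IGFBP5 was higher in RES than in ADLIB after Period 1 and lower after Period 2, but neither of these differences passed the test. IGF2 gave -0.91 (SE 0.61, limma adjusted p = 0.733), which was -0.59 without the libraries that stood apart, and IGF1R gave -0.55 (SE 0.57, limma adjusted p = 0.822). GHR (0.05, SE 0.31), IGF1 (0.01, SE 0.29) and IGFBP3 (-0.12, SE 0.41) were small beside their SE. Without those libraries GHR was 0.26 (SE 0.28), and the interactions of IGF1 and IGFBP3 changed sign.

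The order of the 4 group means of deposited CPM differed between genes, and no neighbours in any order differed beyond their spread. Levels set across periods come from tables that were scaled separately. GHR and IGF1 had the same order over all libraries, ADLIB Period 2, RES Period 2, ADLIB Period 1 and RES Period 1. Mean GHR was 11.8 ± 3.71, 11.2 ± 4.55, 10.5 ± 3.24 and 9.03 ± 2.07 CPM in that order, but without RES Period 2 replicate 1 the mean of RES Period 2 was 12.2 ± 3.61 CPM (n = 9) and stood first. Mean IGF1 in the same order was 3.09 ± 1.09, 2.88 ± 1.33, 2.63 ± 1.19 and 2.35 ± 0.990 CPM. IGF1R ran from ADLIB Period 2 (18.5 ± 6.90 CPM) through RES Period 2 (17.4 ± 9.40) and RES Period 1 (14.9 ± 7.70) to ADLIB Period 1 (12.4 ± 8.00). The first place again passed to RES Period 2 without its replicate 1 (19.3 ± 7.84 CPM, n = 9). IGF2 and IGFBP5 were both highest in RES Period 1. IGF2 followed with ADLIB Period 2 (48.9 ± 16.5 CPM), ADLIB Period 1 (45.4 ± 33.7) and RES Period 2 (41.5 ± 19.5), which was 46.1 ± 14.1 without replicate 1 and then above ADLIB Period 1, and IGFBP5 with ADLIB Period 2 (4.81 ± 2.40 CPM), RES Period 2 (3.60 ± 2.17) and ADLIB Period 1 (3.51 ± 2.32). IGFBP3 ran from 86.8 ± 43.0 CPM in ADLIB Period 1 through 85.6 ± 52.8 in RES Period 1 and 84.1 ± 29.6 in ADLIB Period 2 to 77.6 ± 25.6 in RES Period 2. Without RES Period 1 replicate 6 the mean of that group was 69.7 ± 16.8 CPM (n = 9), the lowest of the 4. Single animals within a group spanned at least 2.56-fold for every gene.

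Animals of the same group varied in these genes, and the spread that read numbers alone would give is set beside the values of each gene, with no test of the difference. The coefficient of variation of IGFBP3 was between 33.0% and 61.6% in the 4 groups, against 4.05% to 4.38% from counting, and the highest of these, in RES Period 1, was 24.1% without replicate 6. For IGF1, the gene with few reads, the values were 35.1% to 46.2% against 21.4% to 24.5% from counting. IGF2 varied by 33.8% to 74.1% and IGF1R by 37.2% to 64.4%, with counting errors of 5.28% to 5.84% and 8.63% to 10.9%. IGF2 and IGF1R in RES Period 2 were at 46.9% and 54.0% with replicate 1, and at 30.6% and 40.7% without it. GHR varied by 22.9% to 40.5% and IGFBP5 by 49.8% to 66.1%, with counting errors of 10.9% to 12.8% and 16.5% to 21.0%. In RES Period 2 GHR and IGFBP5 were at 40.5% and 60.2% with replicate 1, and at 29.6% and 46.6% without it. Compared with all genes listed for Period 1, the residual SD of log2(CPM + 1) within groups was larger than that of 95.5% of genes for IGF1R, 94.2% for IGF2, 91.1% for IGFBP3 and 90.8% for IGFBP5. For GHR (47.9%) and IGF1 (63.9%) it was nearer the middle. After Period 2 IGF2 exceeded 97.1% of genes, but 76.1% without RES Period 2 replicate 1, whereas IGFBP5 exceeded 93.3% with that library and 94.6% without it.

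Some of the genes varied together between animals. Over the 15 pairs of members in each period (30 relations in all, log2(CPM + 1), n = 20 animals), Spearman's rho ranged from -0.41 to 0.68 after Period 1, with 10 pairs positive, and from -0.25 to 0.66 after Period 2, with 12 pairs positive. After Benjamini-Hochberg adjustment over the 30 relations, 4 had an adjusted permutation p under 0.05 by rho. All 4 involved the receptor IGF1R. Without the 2 libraries that stood apart 2 passed, both of Period 1 (IGF1R with IGF2 and with IGFBP5, adjusted permutation p = 0.0496 each).

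**Figure D3:**
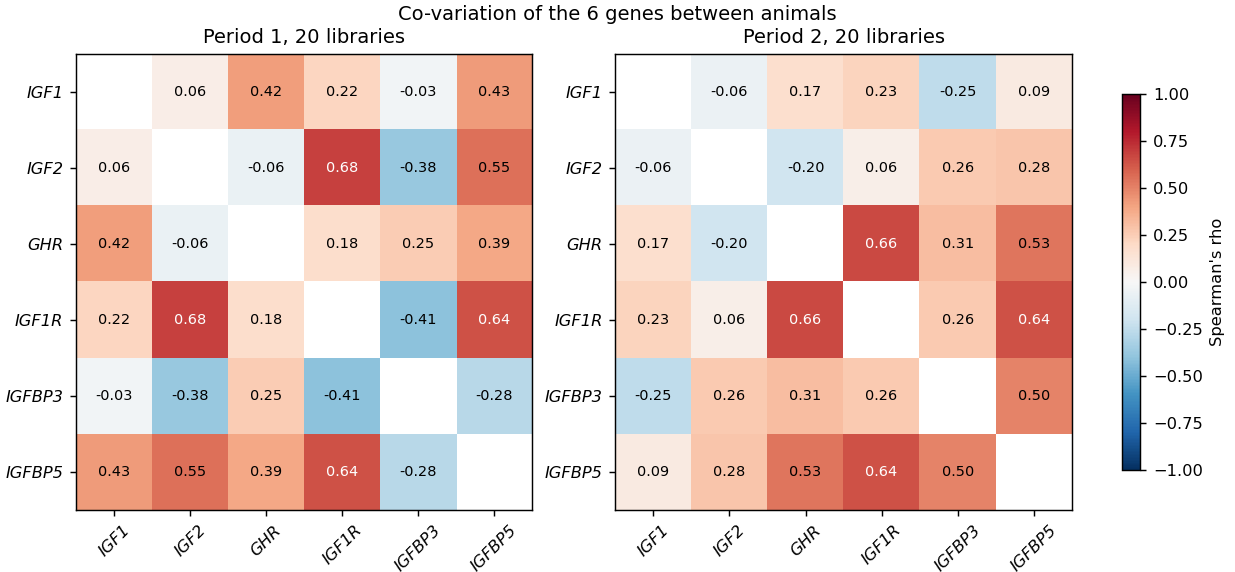
Spearman's rho between the levels of each pair of genes across the 20 libraries of Period 1 (left) and of Period 2 (right), on a colour scale from -1 to 1. IGF1R and IGFBP5 have a rho of 0.64 in both panels, whereas IGF1R with IGF2 is 0.68 in Period 1 and 0.06 in Period 2.

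IGF1R and IGFBP5 passed by rho in both periods over all libraries, but only in Period 1 without the libraries that stood apart. After Period 1 their rho was 0.64 (permutation p = 0.00299, adjusted 0.0225) and Pearson's r was 0.48 (permutation p = 0.0346, adjusted 0.0865). Leaving out the 2 libraries farthest from the median of IGF1R gave r = 0.52. Within diets rho was 0.58 in ADLIB and 0.49 in RES animals (n = 10 each). After Period 2 rho was again 0.64 (permutation p = 0.00300, adjusted 0.0225) and r was 0.80 (permutation p = 0.00012, adjusted 0.0014), with r = 0.73 without the 2 farthest libraries. Without RES Period 2 replicate 1 r was 0.68 (adjusted permutation p = 0.0192) and rho 0.58, which did not pass (adjusted permutation p = 0.0787). Within diets rho was 0.49 in ADLIB and 0.82 in RES animals. None of the 30 rho values computed within ADLIB, or of the 30 within RES, passed its own adjustment. The sign was positive in each diet and period.

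**Figure D4:**
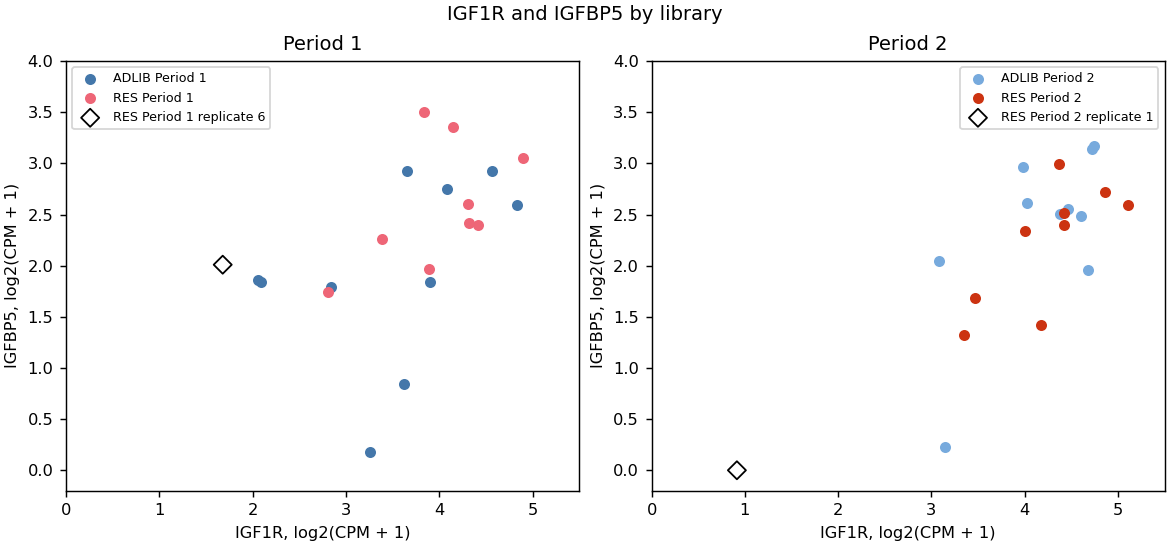
IGF1R on the x axis against IGFBP5 on the y axis, both as log2(CPM + 1), 1 point per animal, for Period 1 (left) and Period 2 (right); colours give the diet and open diamonds the 2 libraries that stood apart. IGFBP5 tended to be higher where IGF1R was higher (rho 0.64 in each panel), with RES Period 2 replicate 1 at the lowest corner and r = 0.68 in Period 2 without it.

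GHR and IGF1R, the receptors, were related after Period 2, with rho 0.66 (permutation p = 0.00199, adjusted 0.0225) and r 0.87 (permutation p = 2.0e-05, adjusted 0.0006). The r was 0.67 without the 2 farthest libraries and 0.74 without RES Period 2 replicate 1 (adjusted permutation p = 0.0129), where the rho of 0.61 no longer passed (adjusted permutation p = 0.0712). Within diets rho was 0.55 in ADLIB and 0.70 in RES animals. After Period 1 the same pair had a rho of 0.18 and an r of 0.10 (permutation p = 0.686, adjusted 0.808). GHR and IGFBP5 after Period 2 had an r of 0.78 (permutation p = 0.00014, adjusted 0.0014), while their rho of 0.53 did not pass (adjusted permutation p = 0.0859). Without RES Period 2 replicate 1 their r was 0.64 (adjusted permutation p = 0.0344) and their rho 0.45. Within diets their rho was 0.16 in ADLIB and 0.85 in RES animals.

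IGF1R and IGF2, a receptor and its ligand, were related after Period 1, with rho 0.68 (permutation p = 0.00139, adjusted 0.0225) and r 0.65 (permutation p = 0.00214, adjusted 0.0160). The r was 0.52 without the 2 farthest libraries, and rho was 0.82 in ADLIB and 0.45 in RES animals. After Period 2 the r of 0.76 (permutation p = 0.0125, adjusted 0.0415) rested on RES Period 2 replicate 1, as r was 0.16 without it and rho was 0.06 with it. IGF2 and IGFBP5 after Period 1 had an r of 0.58 (permutation p = 0.00683, adjusted 0.0293) and a rho of 0.55 that did not pass (adjusted permutation p = 0.0737). In Period 2 their r of 0.61 fell to 0.23 without RES Period 2 replicate 1. The other relations that passed by r but not by rho were those of IGFBP3 with GHR (0.53), IGF1R (0.56) and IGFBP5 (0.63) after Period 2. Without RES Period 2 replicate 1 these were 0.40, 0.45 and 0.54. IGF1 passed with no other member in either period, its largest relation being an r of 0.50 with IGFBP5 after Period 1 (permutation p = 0.0225, adjusted 0.0613).

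Levels of several members were related to how like the rest a library was over all genes. This was examined after the data had been seen, for the 6 members in both periods (12 relations), of which 8 had an adjusted permutation p under 0.05 by r and 1 by rho, that of IGF1R after Period 1. After Period 1 IGF1R was higher in libraries closer to the median of the other 19, with r 0.78 (permutation p = 2.0e-05, adjusted 0.00024) and rho 0.76 (permutation p = 0.00019, adjusted 0.00228). Without RES Period 1 replicate 6 these were 0.73 and 0.72, without the 2 farthest libraries r was 0.77, and rho was 0.76 in ADLIB and 0.82 in RES animals. After Period 2 r was 0.88 (permutation p = 0.00014, adjusted 0.00084) but rho was 0.46 (adjusted permutation p = 0.126). The r was 0.64 without RES Period 2 replicate 1. IGFBP3 had an r of -0.53 after Period 1 (permutation p = 0.0241, adjusted 0.0361), which was -0.27 without RES Period 1 replicate 6, and its rho of -0.25 did not pass (adjusted permutation p = 0.390). After Period 2 its r was of the opposite sign, 0.48 (adjusted permutation p = 0.0361), and 0.36 without RES Period 2 replicate 1. IGF2 after Period 2 had an r of 0.94 (permutation p = 0.00023, adjusted 0.00092), which was 0.34 without the 2 farthest libraries and 0.64 without RES Period 2 replicate 1. In the same period r was 0.69 for both GHR and IGFBP5 (adjusted permutation p = 0.0200 and 0.0110), and without that library it was 0.23 and 0.46. IGF2 after Period 1 had an r of 0.49 (adjusted permutation p = 0.0361). The part that the makeup of the scraped sample or the quality of its RNA has in these relations was not tested.

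**Figure D5:**
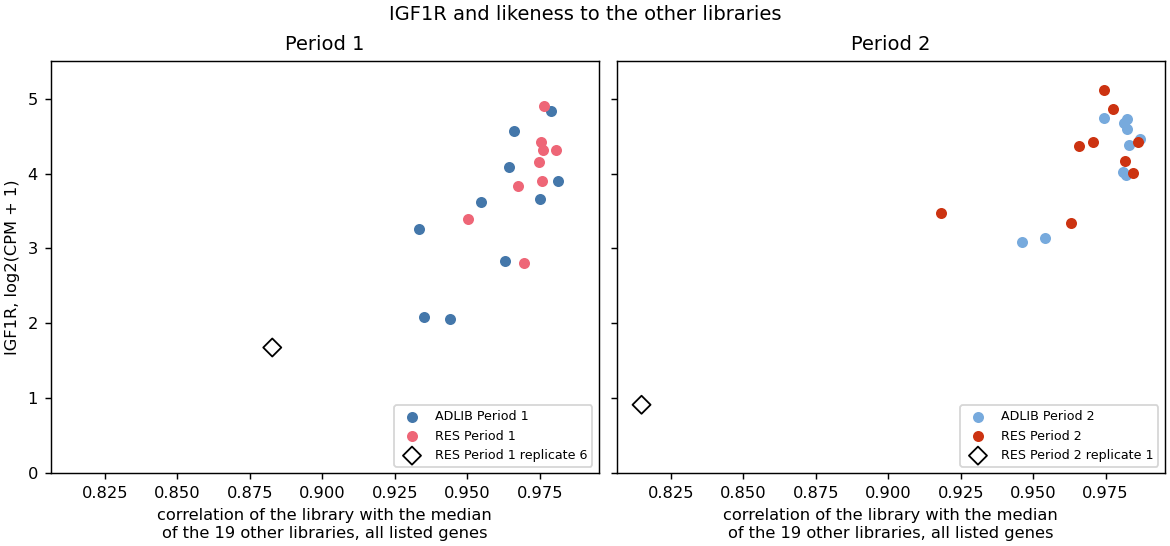
IGF1R as log2(CPM + 1) against the correlation, over all listed genes, of each library with the median profile of the remaining 19 in the same period, for Period 1 (left) and Period 2 (right). The 2 libraries with the lowest correlations, 0.883 and 0.815, also hold the lowest IGF1R of their period, and in Period 1 r is 0.73 among the other 19.

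Among the 13508 other genes listed in both periods, IGF1R had the most with a like pattern of the 6 members. Likeness was taken as the smaller of the 2 rho values, over 20 animals in each period, and is given as a description, since levels in a library share its depth and scaling. For IGF1R, 266 genes reached 0.7 or more in both periods, and the highest was 0.913. For IGFBP5 the count was 87 and the highest 0.842. It was 19 for IGF2 (highest 0.788), 5 for IGFBP3 (0.802), 1 for IGF1 (0.711) and 0 for GHR (0.668). These genes are not named, as their identifiers were not paired with symbols. From the side of IGF1R, IGFBP5 ranked 494 of 13508. From the side of IGFBP5, IGF1R ranked 215. For GHR the nearest member was IGFBP5, at rank 340 with a smaller rho of 0.39. The other members stood far lower in the list of IGF1R, with IGF1 at rank 3494, GHR at 3784, IGF2 at 4717 and IGFBP3 at 9367.

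Ratios of reads within a library, which do not depend on how libraries are scaled, were compared between diets for each pair of genes of the same role (6 comparisons, 0.5 read added to each gene, chosen after the data had been seen). The log2 ratio of the receptors, IGF1R to GHR, was 0.50 ± 1.12 in RES and 0.01 ± 1.08 in ADLIB animals after Period 1, a difference of 0.49 (two-sided permutation p = 0.337, adjusted 0.535). The log2 ratio of the ligands, IGF2 to IGF1, was 4.41 ± 1.05 and 3.88 ± 1.18, a difference of 0.52 (permutation p = 0.304, adjusted 0.535). The log2 ratio of the binding proteins, IGFBP5 to IGFBP3, was -4.0 ± 1.10 and -4.89 ± 1.81, a difference of 0.89 (permutation p = 0.202, adjusted 0.535). Without RES Period 1 replicate 6 these were 0.79 for the receptors (permutation p = 0.0636, adjusted 0.307), 0.62 for the ligands (adjusted 0.490) and 1.13 for the binding proteins (permutation p = 0.102, adjusted 0.307). After Period 2 the differences were -0.20 for the receptors, -0.52 for the ligands and -0.41 for the binding proteins, with adjusted permutation p of 0.535 each. Without RES Period 2 replicate 1 these 3 differences were 0.00, 0.03 and -0.04. None of the 6 ratio differences passed the permutation test, with or without these libraries.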

How the data were processed

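Total RNA of 40 jejunal epithelium samples was sequenced as single-end reads on an Illumina HiSeq. The study's methods name Trim Galore for trimming, TopHat for alignment against UMD3.1 and HTSeq for counting reads on protein-coding genes of Ensembl. The strand setting of the counting was not given in the sources used here. The authors deposited 1 normalised signal per gene and library, in CPM after TMM scaling by edgeR within the 20 libraries of each period. All values (100.0%, tolerance 0.01 read) were whole multiples of the value of 1 read, and the reads were recovered from these steps. No 2 libraries held identical values.

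RES and ADLIB were compared within a period with limma (3.58.1, R 4.3.3, intensity trend) on log2(CPM + 1) of the deposited values. Fold changes on this scale understate those of genes with few reads. For changes over time and the interaction, CPM was recomputed from recovered reads with 1 TMM scaling over 13509 shared genes. P-values were Benjamini-Hochberg adjusted over all genes, and the threshold was 0.001, with 0.05 as an alternative. The likelihood ratio and quasi-likelihood tests and limma-voom of edgeR (4.0.16) and limma, and DESeq2 (1.42.0), were run on recovered reads as alternatives. The limma fit was tested on simulated data. Correlations and single differences were tested with 100000 permutations, two-sided. Floors and counting errors cover counting error only.

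Members, lists and tests were chosen with earlier results of these data known. All 6 members were named in every group. Further genes of the pathway, cell type markers and genes of like pattern, which were also to be named, were not analysed here, because the reference table of 37063 genes (ARS-UCD2.0) paired 0 of the identifiers with symbols.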

Additional observations from a re-analysis of the deposited data

Results flagged for a closer look

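In groups of 10, a library was marked where its gap to the nearest other library, divided by the range of the group on the log2(CPM + 1) scale, was above Dixon's 95% critical value. This held in 6 of 24 groups (6 genes in 4 groups each), where chance gives 1.2. RES Period 2 replicate 1 accounted for 3 of them, as the lowest library for IGF2 (0.671), IGF1R (0.579) and GHR (0.524), with 3, 3 and 9 reads. IGF1 in the same library was 2.66 CPM, within the range of the other 9. RES Period 1 replicate 6 was marked as the highest library for IGFBP3 (0.472), at 228.9 CPM. These are the libraries that stood apart over all genes. The remaining 2 came from other animals. GHR was lowest in RES Period 1 replicate 3 (0.607), at 4.30 CPM where the next was 7.71. IGFBP5 was lowest in ADLIB Period 2 replicate 10 (0.587), with 1 read where the next library held 2.87 CPM. The causes were not tested.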

How the results depend on the processing

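No setting called any of the 6 genes at an adjusted p under 0.001 or, in the main test, under 0.05. The 30 differences (6 genes, 5 comparisons) gave 327 values under 12 alternative settings, and 306 kept their direction. The cause of the changes in direction was not tested. IGFBP3 after Period 1 was -0.021, -0.023 and -0.027 by edgeR's likelihood ratio and quasi-likelihood tests and DESeq2, -0.16 without the libraries that stood apart and -0.32 by the likelihood ratio test without them, which was added after seeing the data. After Period 2 IGF1 was 0.020 with the library code number as a factor, and without the libraries that stood apart GHR and IGF1R were 0.059 and 0.060 by limma and 0.043 and 0.049 by the likelihood ratio test. IGFBP3 over time in RES was 0.18 and 0.20 by these 2 settings. In ADLIB it was -0.071 by both edgeR tests (for the likelihood ratio test also in the setting without the libraries that stood apart, neither of which is ADLIB), -0.062 by DESeq2 and -0.024 with the library code number. For the interaction IGF1 was -0.0024 by limma-voom and -0.017 without those libraries, and IGFBP3 was 0.14 and 0.26 without them by limma and the likelihood ratio test. Of the ratios, 2 changed sign without them after Period 2, IGF1R to GHR (0.00034) and IGF2 to IGF1 (0.027).

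Leaving out single animals moved these log2 differences across 0: after Period 1 IGF1 (-0.19 to 0.0015) and IGFBP3 (-0.19 to 0.14), after Period 2 GHR (-0.21 to 0.059) and IGF1R (-0.41 to 0.060), over time in RES IGF1R (-0.11 to 0.45) and IGFBP3 (-0.20 to 0.098), over time in ADLIB IGFBP3 (-0.17 to 0.16), and for the interaction GHR (-0.047 to 0.23), IGF1 (-0.089 to 0.11) and IGFBP3 (-0.24 to 0.089). The lowest adjusted p in these fits was 0.511, for IGFBP5 in the interaction without ADLIB Period 2 replicate 10. With the replicate number as a block every estimate was as before (for example 0.57 for IGFBP5 after Period 1, limma unadjusted p = 0.120) and 0 members were called. The mean correlation of the deviations of samples with the same number was -0.10, -0.09, 0.16 and -0.02 in the 4 comparisons of 2 groups. For samples with different numbers it was 0.02, 0.02, -0.01 and 0.01. Between 0 and 3 of 10 samples correlated best with their own number. The value of 0.16 and the count of 3 were those over time in RES. Whether samples of the same number share more than the number was not tested. Over all genes limma called 0 in every comparison. The likelihood ratio test called 3 of 13509 genes over time in RES (6 without the libraries that stood apart) and 1 for the interaction, and DESeq2 called 2 of 13685 after Period 1 and 3 over time in RES, none of them a member. The quasi-likelihood test and limma-voom called 0. DESeq2 gave no adjusted p for IGF1 and IGFBP5 over time in ADLIB and for IGF1 in the interaction.

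By rho, 4 of 30 pairs of members passed, against 2, both of Period 1, without the libraries that stood apart and 0 within either diet. By r the numbers were 10, 5, 0 within ADLIB and 2 within RES. Restricting the test to genes at 1 CPM or more in every library left out IGFBP5 in all comparisons and gave no value for 15 of the 30 differences. IGF1 and IGFBP5 rested on at most 84 reads per library, which limits their precision.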
